A study of Mus musculus with 16 samples.

Results

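The aminoacyl-tRNA synthetases were followed in RNA sequencing of mouse hearts as 37 genes, of which 20 encode cytosolic and 17 mitochondrial enzymes. The members were taken by symbol alone: an amino acid letter followed by "ars", with or without a final number, plus Farsa, Farsb and Eprs. Symbols that end in 2 were counted as mitochondrial and the others as cytosolic. All 37 were listed in both count tables, among 14138 genes in the table of CPT2H-KO and wild type hearts and 17831 in the table of CPT2/USP30 double KO and CPT2 single KO hearts. The same 37 passed the filter on low counts in each table, which left 14123 genes tested in the first table and 12997 in the second.

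A synthetase couples an amino acid to its matching tRNAs, and the charged tRNA is the form that the ribosome uses. Mitochondria make a small set of respiratory chain subunits on ribosomes of their own, and they import a separate set of nuclear-encoded synthetases for that work. In the heart, which depends on mitochondrial energy production, human mutations of several mitochondrial synthetases are known to cause cardiomyopathy, while many cytosolic synthetase genes are known targets of ATF4, the transcription factor of the integrated stress response.

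The first table compared 5 CPT2H-KO hearts with 5 wild type hearts. CPT2, carnitine palmitoyltransferase 2, completes the import of long-chain fatty acids into mitochondria, and the study's design text gives its deletion as specific to cardiomyocytes, so the other cells of these hearts keep the gene. The second table compared 3 CPT2/USP30 double KO hearts with 3 CPT2 single KO hearts, whose genotype label is also CPT2H-KO, and therefore both of its groups lack CPT2 in cardiomyocytes. USP30 is a deubiquitinase of the mitochondrial outer membrane that opposes mitophagy, and the design text names Myh6-Cre, a driver active in cardiomyocytes, with floxed USP30 alleles. Age, sex, strain, litter and the driver used for CPT2 were not given in the sources used here.

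Libraries held 54674422 to 131049342 counts in CPT2H-KO hearts and 55905339 to 132762776 in wild type hearts, against 11779115 to 12734379 in double KO hearts and 11067969 to 13532716 in single KO hearts. The mitochondrial 16S ribosomal RNA gene mt-Rnr2 took 48.7% to 55.9% of the counts of CPT2H-KO libraries and 46.3% to 50.3% of those of wild type libraries, and it was analysed in the first table only. Levels are given as CPM (counts scaled to a common library size, with library sizes adjusted by the trimmed mean of M values), and they were not compared between tables. Cpt2 itself lay at 30.4 to 44.9 CPM in CPT2H-KO hearts and 53.0 to 89.9 CPM in wild type hearts, and Usp30 at 7.45 to 10.4 CPM in double KO hearts and 18.5 to 22.8 CPM in single KO hearts. Cardiomyocyte markers were abundant in every group, with 6 genes summing to 46470 to 54190 CPM in CPT2H-KO hearts and 50340 to 58480 CPM in wild type hearts, and to 57960 to 90690 CPM in double KO and 64120 to 70400 CPM in single KO hearts. Libraries stood apart in atrial transcripts: Myl7, an atrial myosin light chain, lay at 14.1, 0.497, 0.285, 0.610 and 144 CPM in CPT2H-KO hearts 1 to 5, against 25.4 to 194 CPM in wild type hearts, and at 1.49, 102 and 425 CPM in double KO hearts 1 to 3, against 0.0747 to 0.458 CPM in single KO hearts. Y-linked transcripts exceeded 10 CPM in 3 of 5 CPT2H-KO and 4 of 5 wild type hearts, and in 0 of 3 double KO and 2 of 3 single KO hearts.

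Most cytosolic synthetase transcripts were more abundant in CPT2H-KO hearts than in wild type hearts, whereas few mitochondrial ones changed. Of the 20 cytosolic genes, 13 rose: Iars, Yars, Mars, Cars, Aars, Vars, Nars, Sars, Gars, Lars, Rars, Tars and Eprs. The other 7 (Dars, Farsa, Farsb, Hars, Kars, Qars and Wars) were not called, with log2 fold changes of -0.13 to 0.10. Among the 17 mitochondrial genes, 1 rose (Wars2), 3 fell, Fars2 and Ears2 among them, and 13 were not called. Together the 37 genes took 0.245% ± 0.0167 of all counts outside mitochondrially encoded genes in CPT2H-KO hearts, against 0.192% ± 0.00315 in wild type hearts (SD, n = 5 each).

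These calls came from edgeR's quasi-likelihood test with Benjamini-Hochberg adjustment over all 14123 genes at a threshold of 0.05, which called 33.7% of genes in either direction, 16.7% higher and 17% lower. The 13 of 20 cytosolic genes stand against that 16.7%, while 1 of 17 mitochondrial genes higher and 3 of 17 lower lie near or under the shares of all genes. No cytosolic gene was called lower, 0 of 20 also by DESeq2, by limma-voom and at an unadjusted p under 0.05, which 22.3% of all genes reached in that direction. The median log2 fold change was 0.46 over the cytosolic genes and -0.08 over the mitochondrial genes, against -0.01 over all genes tested. In 12 of the 13 cytosolic genes called higher, every CPT2H-KO library lay above every wild type library, a separation that 11.5% of all tested genes showed in that direction. Tars was the exception. Scaling by library totals alone moved all genes by -0.263 (log2), and under it 9 cytosolic genes were called higher and 3 lower (Dars, Farsa and Hars), with a median of 0.19 against -0.27 over all genes, while 0 mitochondrial genes were called higher and 7 lower.

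**Figure D1:**
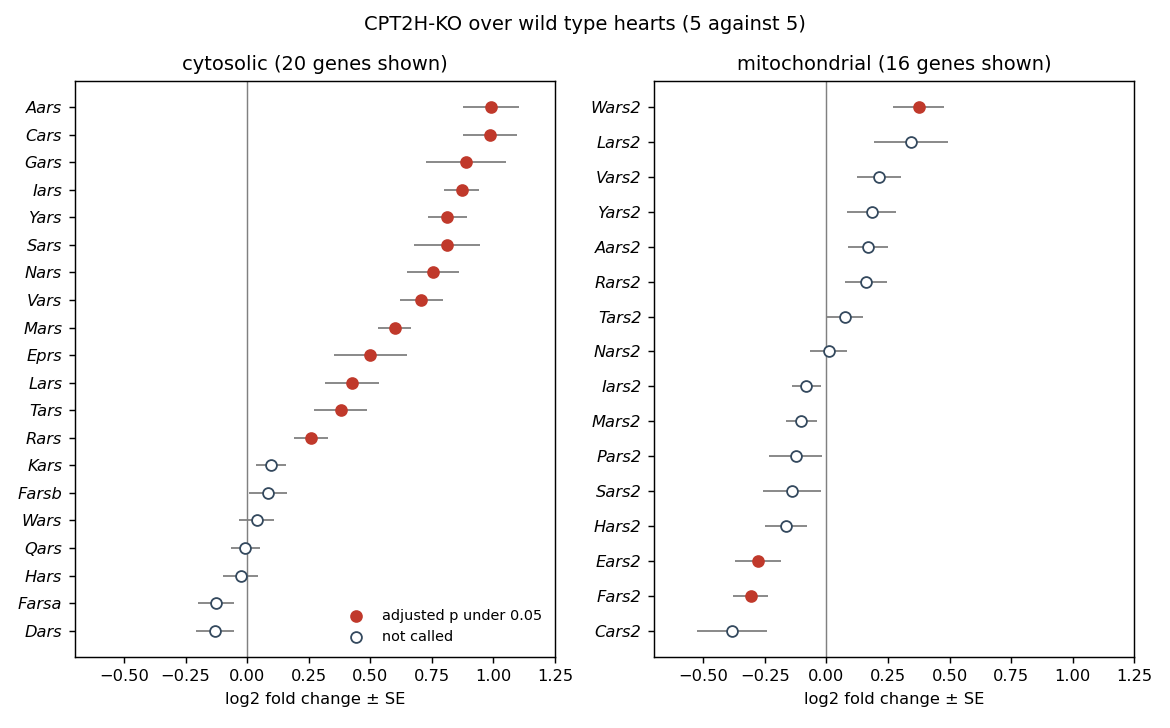
Log2 fold change (CPT2H-KO over wild type, x axis, with its standard error) of the 20 cytosolic (left) and 16 of the 17 mitochondrial (right) synthetase genes, sorted from high to low; filled points passed the adjusted p threshold of 0.05. The 13 filled cytosolic points lie between 0.26 and 0.99, whereas the mitochondrial points run from -0.38 to 0.37 with 3 filled (Wars2, Ears2 and Fars2).

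Because 13 cytosolic genes were called in the same direction, the promoters of the members were read for TGATGNAA, the C/EBP-ATF response element bound by ATF4, on both strands of RefSeq windows that run from 250 bases before to 50 bases after the start base. Windows were read for 27 members. Lars and Nars, both called higher, Hars, not called, and the mitochondrial Hars2 were among those left out of the reading. Whether the members left out hold the motif was not examined, and the member counts that follow cover only those read. The motif was present in 5 of the 8 cytosolic genes called higher that were read (62.5%) and absent from the windows of the other 3, Eprs, Mars and Sars. It was found in 0 of the 5 cytosolic genes read that were not called and in 0 of the 14 mitochondrial genes read. It was held by 4.51% of all genes with a RefSeq window, by 2.74% of those tested here and by 3.25% of those called higher in CPT2H-KO hearts. A match describes these letters only, and no factor's binding was measured.

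The 5 promoters with the motif are printed 5′ to 3′ on the strand of the gene, from 120 bases before the start base through its first 30 transcribed bases, as RefSeq gives them for GRCm38.p6. Capitals mark TGATGNAA or its reverse complement. They show where the element lies in the genes whose values follow. The windows are Aars at chr8:111033722-111033871 (plus strand), Gars at chr6:55037881-55038030 (plus), Iars at chr13:49682010-49682159 (plus), Tars at chr15:11399629-11399778 (minus) and Yars at chr4:129189783-129189932 (plus).
Aars: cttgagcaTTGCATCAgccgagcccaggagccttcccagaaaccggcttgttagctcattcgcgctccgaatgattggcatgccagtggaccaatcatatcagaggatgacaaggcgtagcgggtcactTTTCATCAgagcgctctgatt
Gars: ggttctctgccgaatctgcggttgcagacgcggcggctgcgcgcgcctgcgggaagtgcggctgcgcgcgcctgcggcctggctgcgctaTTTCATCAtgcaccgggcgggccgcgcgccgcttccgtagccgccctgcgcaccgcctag
Iars: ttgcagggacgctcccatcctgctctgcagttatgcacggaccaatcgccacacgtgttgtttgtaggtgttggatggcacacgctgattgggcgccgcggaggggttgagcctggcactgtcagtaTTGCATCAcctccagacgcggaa
Tars: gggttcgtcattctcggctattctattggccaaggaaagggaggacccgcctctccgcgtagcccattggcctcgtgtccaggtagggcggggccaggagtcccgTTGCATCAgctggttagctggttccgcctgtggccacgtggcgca
Yars: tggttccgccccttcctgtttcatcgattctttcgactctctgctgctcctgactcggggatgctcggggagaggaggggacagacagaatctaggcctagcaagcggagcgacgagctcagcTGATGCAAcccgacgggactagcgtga
In Aars the element occurs at a pair of places, beginning 112 bases before the start base and again at base 10 of the transcript. It begins 30 bases before the start in Gars and 15 bases before it in Tars. In Iars it begins at base 8 and in Yars at base 4 of the transcript. These places hold for the RefSeq starts. The GENCODE M21 annotation begins Aars at 111033144 and Yars at 129189760, both upstream of the printed windows.

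Among cytosolic synthetases that work outside the multisynthetase complex, Aars and Cars had the largest log2 fold changes. Aars, the alanyl-tRNA synthetase (chromosome 8, 111033144 to 111057664 in the GENCODE M21 annotation of GRCm38, the mm10 assembly), had 62.0, 48.8, 41.5, 40.2 and 52.0 CPM in CPT2H-KO hearts, against 25.4, 22.4, 25.8, 25.8 and 23.6 CPM in wild type hearts. Every knockout library exceeded every wild type one, and the first knockout heart stood highest. The difference was 0.99 on the log2 scale (SE 0.11, adjusted p = 0.000143). Cars, the cysteinyl-tRNA synthetase (chromosome 7, 143557230 to 143600090), had 15.1, 14.6, 14.3, 12.3 and 16.6 CPM in CPT2H-KO hearts, against 6.34, 6.66, 7.51, 7.17 and 9.15 CPM in wild type hearts. The groups did not overlap, and the wild type library nearest to the knockouts was the fifth. Its log2 fold change was also 0.99 (SE 0.11, adjusted p = 0.000124).

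Yars, the tyrosyl-tRNA synthetase (chromosome 4, 129189760 to 129219607), had 22.4, 21.1, 18.2, 17.3 and 21.8 CPM in CPT2H-KO hearts, against 11.7, 11.0, 11.3, 11.6 and 11.8 CPM in wild type hearts. The wild type libraries were close together and the knockout libraries were all above them (log2 fold change 0.81, SE 0.080, adjusted p = 5.38e-05). Vars, the valyl-tRNA synthetase that associates with elongation factor eEF1 (chromosome 17, 35000987 to 35016322), had 28.6, 22.6, 22.2, 22.8 and 21.0 CPM in CPT2H-KO hearts, against 13.6, 15.5, 14.9, 13.9 and 13.9 CPM in wild type hearts. Its first knockout library stood above the other 4, which lay near each other and still above all wild type libraries. The change was 0.71 on the log2 scale (SE 0.088, adjusted p = 0.000230).

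Gars, the glycyl-tRNA synthetase, serves both the cytosol and mitochondria from the same gene (chromosome 6, 55038007 to 55079500). It had 86.8, 51.2, 43.7, 46.3 and 56.9 CPM in CPT2H-KO hearts, against 30.5, 31.4, 31.8, 29.8 and 30.3 CPM in wild type hearts. The wild type libraries varied least of any cytosolic member, with a coefficient of variation of 2.68%, whereas the knockout libraries varied most, with 30.6%, the first heart far above the rest. The log2 fold change was 0.89 (SE 0.16, adjusted p = 0.00215). Sars (seryl-tRNA synthetase, log2 fold change 0.81, SE 0.13, adjusted p = 0.00121), Nars (asparaginyl, 0.75, SE 0.11, adjusted p = 0.000511) and Tars (threonyl, 0.38, SE 0.11, adjusted p = 0.0192) rose as well. For Tars the lowest knockout library, 12.9 CPM, lay under the highest wild type library, 13.3 CPM. Of the 12 cytosolic genes outside the complex, 8 rose, with a median log2 fold change of 0.73 over the 12.

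The multisynthetase complex, which holds 8 of these enzymes on the scaffold proteins Aimp1, Aimp2 and Eef1e1, was split. Of its 8 synthetase genes 5 rose, Iars, Mars, Lars, Rars and Eprs, and the median over the 8 was 0.34. Iars, the isoleucyl-tRNA synthetase (chromosome 13, 49682100 to 49734267), had the smallest p of all 37 genes. Its levels were 61.2, 58.6, 53.0, 50.8 and 62.4 CPM in CPT2H-KO hearts, against 29.8, 30.9, 32.9, 31.0 and 31.8 CPM in wild type hearts. The lowest knockout heart was far above the highest wild type heart (log2 fold change 0.87, SE 0.071, adjusted p = 1.60e-05). Mars, the methionyl-tRNA synthetase, whose enzyme charges the initiator tRNA (chromosome 10, 127296221 to 127311786), had 31.1, 30.5, 27.5, 26.9 and 31.6 CPM in CPT2H-KO hearts, against 19.2, 19.1, 20.8, 19.0 and 19.4 CPM in wild type hearts. Those groups were also apart (log2 fold change 0.60, SE 0.066, adjusted p = 0.000118). The annotated end of Mars overlaps Ddit3 on the opposite strand, and Ddit3 lay at 5.70 ± 1.54 CPM in CPT2H-KO and 4.75 ± 1.11 CPM in wild type hearts (SD, n = 5 each).

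Eprs, which encodes a bifunctional enzyme for glutamate and proline (chromosome 1, 185363044 to 185428360), had 150.2, 98.8, 80.1, 86.0 and 108 CPM in CPT2H-KO hearts, against 73.6, 76.2, 76.8, 66.6 and 77.1 CPM in wild type hearts. The first knockout heart was far above the others, and the lowest knockout library was only slightly above the highest wild type library. The log2 fold change was 0.50 (SE 0.15, adjusted p = 0.0237), and the call ended without wild type replicate 4 (adjusted p = 0.057). Lars (leucyl-tRNA synthetase, 0.42, SE 0.11, adjusted p = 0.0132) and Rars (arginyl, 0.26, SE 0.069, adjusted p = 0.0147) changed less. Rars, Lars, Tars and Eprs lost their calls under scaling by library totals.

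Kars, the lysyl-tRNA synthetase that, like Gars, supplies both compartments (chromosome 8, 111993443 to 112011323), had 33.6, 31.7, 33.6, 34.3 and 33.2 CPM in CPT2H-KO hearts, against 32.0, 31.5, 33.7, 29.2 and 29.2 CPM in wild type hearts. Its groups overlapped and it was not called (log2 fold change 0.10, adjusted p = 0.236). The other 2 complex members were Dars (aspartyl, -0.13) and Qars (glutaminyl, -0.01). Qars has no mitochondrial counterpart, because mitochondria charge that tRNA with glutamate through Ears2 and convert it with the amidotransferase of Qrsl1, Gatb and Gatc.

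The phenylalanyl enzyme of the cytosol is built from alpha and beta subunits, Farsa and Farsb, and neither was called. Farsa (chromosome 8, 84856989 to 84869257) had 6.60, 7.88, 7.06, 7.32 and 7.76 CPM in CPT2H-KO hearts, against 8.40, 7.77, 7.93, 8.56 and 7.30 CPM in wild type hearts. Farsb (chromosome 1, 78417975 to 78488897) had 15.96, 18.5, 17.5, 18.2 and 20.7 CPM in CPT2H-KO hearts, against 17.1, 17.0, 18.2, 17.9 and 15.5 CPM in wild type hearts. Both sets of libraries overlapped, with log2 fold changes of -0.13 for Farsa and 0.08 for Farsb. Wars, the tryptophanyl enzyme known for its induction by interferon gamma, differed by 0.04 and the histidyl Hars by -0.03. The 10 interferon response genes examined beside Wars gave 0 higher and 1 lower by edgeR, Gbp2.

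**Figure D2:**
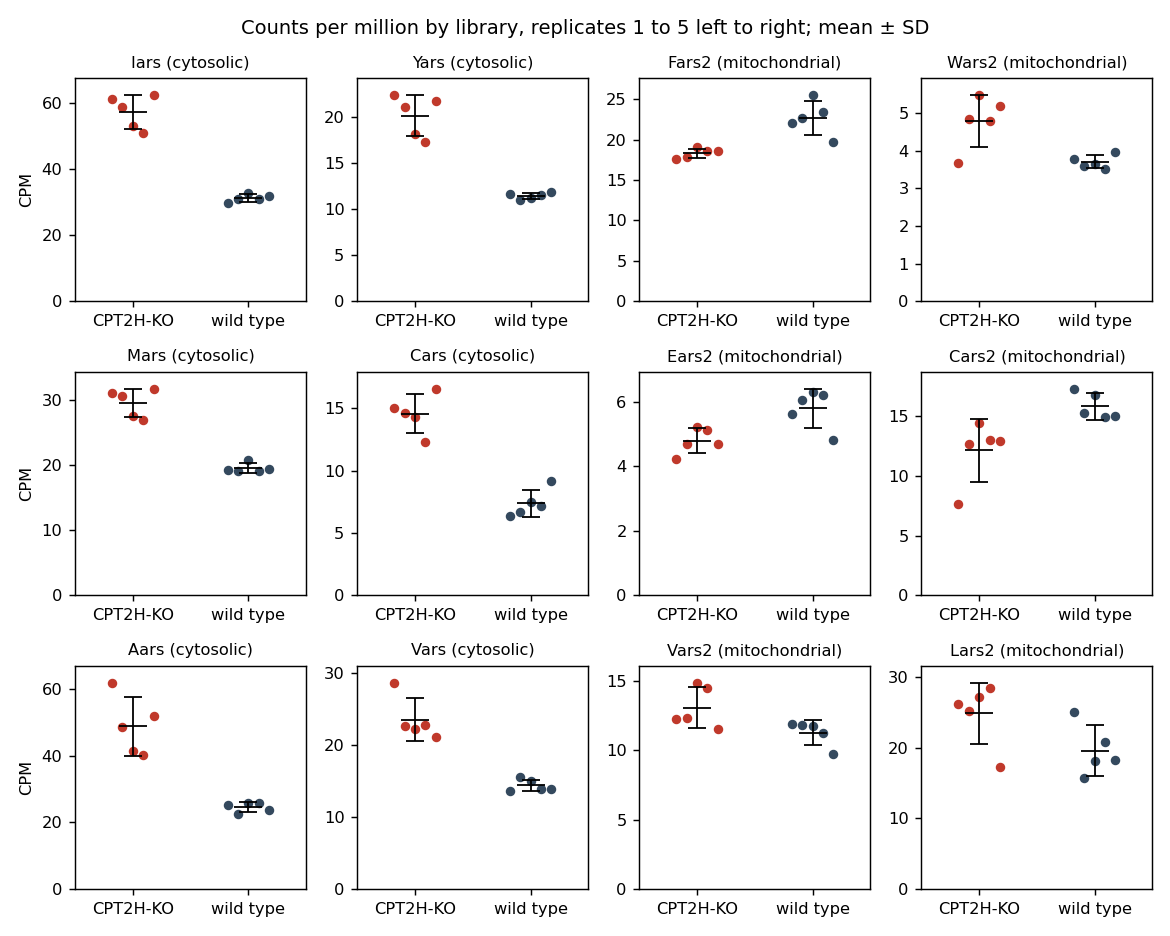
CPM (y axis, from 0) of the 6 cytosolic synthetase genes with the smallest p and 6 of the 7 such mitochondrial genes, for each CPT2H-KO and wild type library from replicate 1 to 5, with mean and SD. All 6 cytosolic genes separate the groups; among the mitochondrial genes Fars2 and Cars2 do so in the opposite direction, and Wars2, Ears2, Vars2 and Lars2 overlap.

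The mitochondrial synthetases moved in both directions and by less. Fars2, the single-chain phenylalanyl enzyme of mitochondria (chromosome 13, 36117412 to 36726280), had 17.6, 17.8, 19.0, 18.5 and 18.6 CPM in CPT2H-KO hearts, against 22.1, 22.6, 25.5, 23.4 and 19.7 CPM in wild type hearts. The groups were apart, the fifth wild type heart being nearest (log2 fold change -0.31, SE 0.072, adjusted p = 0.00792). Cars2, the cysteinyl enzyme (chromosome 8, 11513977 to 11550783), had 7.63, 12.7, 14.4, 13.0 and 12.9 CPM in CPT2H-KO hearts, against 17.3, 15.2, 16.8, 14.9 and 14.99 CPM in wild type hearts. Its groups did not overlap either, but the first knockout library was far below the other 4, and the gene missed the threshold (-0.38, SE 0.14, adjusted p = 0.0581). Without that library it passed (log2 fold change -0.26, adjusted p = 0.0170). Separation in this direction was shown by 3 of 17 mitochondrial genes and by 13.2% of all tested genes.

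Ears2, the glutamyl enzyme (chromosome 7, 122037213 to 122067263), had 4.23, 4.70, 5.21, 5.12 and 4.67 CPM in CPT2H-KO hearts, against 5.62, 6.04, 6.30, 6.20 and 4.81 CPM in wild type hearts. The fifth wild type heart lay among the knockouts (log2 fold change -0.28, SE 0.094, adjusted p = 0.0404). Its annotated span overlaps Ubfd1 on the opposite strand, which was also lower, with 14.1 ± 1.248 CPM in CPT2H-KO and 18.7 ± 1.39 CPM in wild type hearts (SD, n = 5 each, adjusted p = 0.00294). Wars2, the tryptophanyl enzyme (chromosome 3, 99141068 to 99239186), had 3.68, 4.83, 5.47, 4.80 and 5.20 CPM in CPT2H-KO hearts, against 3.78, 3.60, 3.66, 3.52 and 3.97 CPM in wild type hearts. The other 4 knockout libraries stood above all wild type libraries while the first lay among them (log2 fold change 0.37, SE 0.11, adjusted p = 0.0188). Vars2, the valyl enzyme (chromosome 17, 35655634 to 35667592), had 12.2, 12.3, 14.9, 14.5 and 11.5 CPM in CPT2H-KO hearts, against 11.9, 11.8, 11.7, 11.2 and 9.73 CPM in wild type hearts. Those groups overlapped and it was not called (0.21, adjusted p = 0.0907).

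The calls of Ears2, Wars2 and Fars2 ended under some alternatives. Ears2 stayed called in 8 of 20 alternatives, and leaving out any of CPT2H-KO replicates 1, 2 and 5 or wild type replicates 1 to 4 ended its call, with adjusted p between 0.0656 and 0.0985. Wars2 and Fars2 were no longer called with an atrial covariate (adjusted p = 0.113 for Wars2 and 0.0595 for Fars2); in all, Wars2 was called in 17 and Fars2 in 18 of the 20. Among the cytosolic genes, Iars, Yars, Mars, Cars, Aars, Vars, Nars, Sars and Gars were called in 20 of 20 alternatives.

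Lars2, the leucyl enzyme of mitochondria (chromosome 9, 123366927 to 123462666), had 26.2, 25.1, 27.1, 28.4 and 17.3 CPM in CPT2H-KO hearts, against 25.1, 15.7, 18.1, 20.8 and 18.2 CPM in wild type hearts. The fifth knockout heart was low and the first wild type heart high, and the groups overlapped (log2 fold change 0.34, SE 0.15, adjusted p = 0.0996). Without the fifth knockout library it passed the threshold (0.45, adjusted p = 0.0173), as it did without the first wild type library (0.45, adjusted p = 0.0411). A search of the annotated transcripts found 0 of 37 members with sequence similar to mt-Rnr2. No other ribosomal RNA was searched, and the source of the uneven Lars2 counts was not tested. Another 10 mitochondrial members, Iars2, Mars2, Nars2 and Rars2 among them, had log2 fold changes of -0.16 to 0.18 and were not called.

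Members with an antisense neighbour are uncertain, since no source used here gives how the counting treated strand. Besides Mars with Ddit3 and Ears2 with Ubfd1, this touches Iars2, whose neighbour Rab3gap2 had 27.4 ± 4.98 CPM in CPT2H-KO and 18.03 ± 1.46 CPM in wild type hearts (SD, n = 5 each), as well as Yars with C77080, Fars2 with Lyrm4 and Nrn1, Wars with Wdr25, Cars2 with Naxd, and Hars with Hars2. Naxd was among the tested genes only in double KO against single KO hearts. Other annotated antisense genes, which were not among the genes tested, overlap Aars, Cars, Sars, Lars, Farsb, Wars2, Vars2 and Nars2.

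The size of the cytosolic rise differed between knockout hearts. For each library the deviation of every gene from its wild type mean was taken on the log2 scale, and its median over the 20 cytosolic genes was 0.70, 0.45, 0.18, 0.22 and 0.55 in CPT2H-KO hearts 1 to 5, against -0.03 to 0.06 in wild type hearts. All 5 knockout libraries lay above all wild type libraries. Of the 13 genes called higher, 9 peaked in the first knockout heart and 4 in the fifth, and 8 had their lowest knockout value in the fourth. The median over the 17 mitochondrial genes was -0.15, -0.11, -0.02, 0.05 and -0.05 in the same knockout hearts, against -0.09 to 0.03 in wild type hearts. The first knockout heart, highest for the cytosolic set, was the lowest of all 10 libraries in 8 of 17 mitochondrial genes. Such counts of highest and lowest libraries were not taken over all genes.

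**Figure D3:**
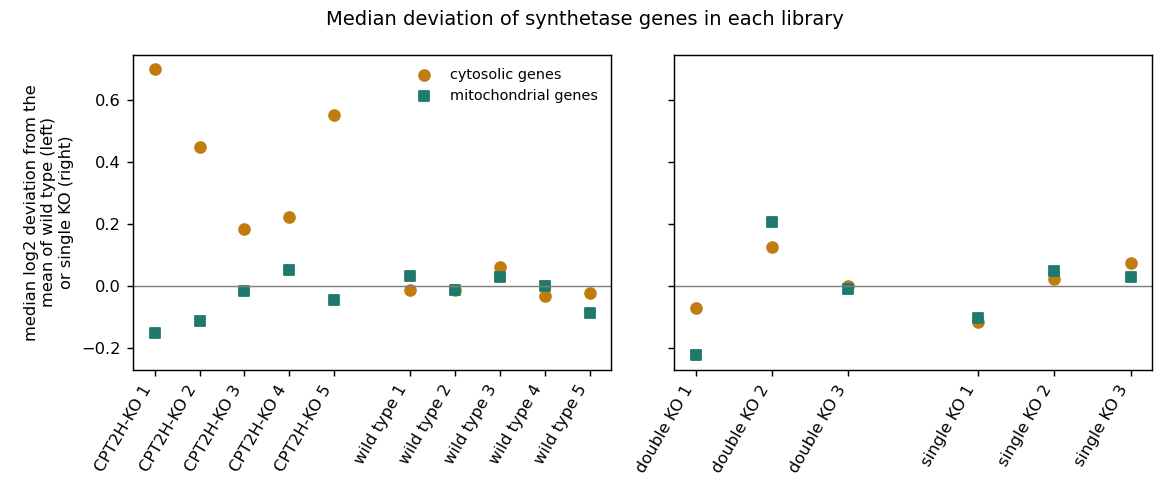
Median log2 deviation (y axis) of the cytosolic genes (circles) and the mitochondrial genes (squares) in each library, from the mean of wild type hearts (left panel) or of CPT2 single KO hearts (right panel). In the left panel the circles of all 5 CPT2H-KO libraries, 0.18 to 0.70, are above those of wild type; in the right panel double KO and single KO libraries overlap for both sets.

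CPT2H-KO hearts 1 and 5 were also those with Myl7 above 10 CPM. With an atrial covariate in the fit, 13 cytosolic genes were again called higher with a median of 0.64, and without the 3 knockout libraries under 10 CPM of Myl7, a choice made after the data were seen, 13 were called higher with a median of 0.66. Under that choice Eprs changed by 0.80 and Tars by 0.60. Other markers differed between the groups too. Fibroblast markers summed to 594 to 1089 CPM in CPT2H-KO and 438 to 590 CPM in wild type hearts, with 2 of 5 called higher (Col1a1 and Col1a2), and smooth muscle markers to 54.7 to 149 CPM in CPT2H-KO and 119 to 201 CPM in wild type hearts, with Acta2 lower. Of 6 cardiomyocyte markers 3 were called lower (Tnnt2, Actc1 and Pln). These marker counts stand beside 16.7% of all tested genes called higher and 17% called lower. Endothelial markers summed to 269 to 349 CPM in CPT2H-KO and 253 to 336 CPM in wild type hearts, with 1 of 5 called lower (Tek). Macrophage markers summed to 75.3 to 110 CPM in CPT2H-KO and 88.9 to 116 CPM in wild type hearts, with 0 called. Red blood cell markers summed to 16.04 to 163 CPM in CPT2H-KO and 55.6 to 153 CPM in wild type hearts, also with 0 called. No marker had a total of 0 counts over all libraries of these groups. The part of these differences in the synthetase result was not tested, and in bulk hearts fewer cells of a type and less RNA per cell cannot be told apart.

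Setting each cytosolic gene against its mitochondrial counterpart in the same library removed the scaling from the comparison. The log2 ratio of cytosolic to mitochondrial CPM was above wild type on average in 17 of 18 pairs, with a median difference of 0.54, and in 9 pairs every knockout library exceeded every wild type library. Among single genes, 11.5% of all tested genes showed that separation upward, and no share over other gene pairs was taken. Apart from Farsb, the cytosolic genes of these 9 pairs were among those already called higher. Cars over Cars2 differed most, with 0.29 ± 0.43 in CPT2H-KO and -1.11 ± 0.27 in wild type hearts (SD, n = 5 each), a difference of 1.40. Iars and Iars2 were about level in knockout hearts, with a log2 ratio of 0.0003 ± 0.11, against -0.95 ± 0.089 in wild type hearts (SD, n = 5 each). Sars over Sars2 differed by 0.95, Aars over Aars2 by 0.81, Nars over Nars2 by 0.73, Mars over Mars2 by 0.70, Yars over Yars2 by 0.63, Vars over Vars2 by 0.49 and Farsb over Fars2 by 0.38, all without overlap. For Farsb over Fars2 only the fall of Fars2 was called. Wars over Wars2 went the other way, by -0.32, and Lars over Lars2 differed by 0.07. Pairs that share Eprs or Fars2 are not independent of each other, and the ratios were described and not tested.

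**Figure D4:**
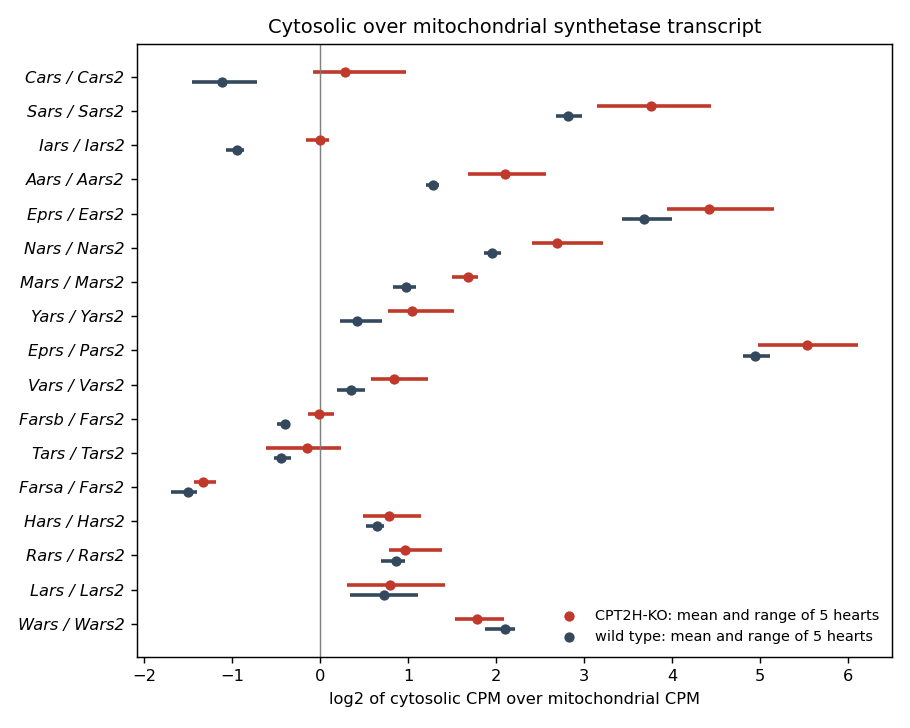
Log2 ratio of cytosolic over mitochondrial CPM (x axis) for 17 of the 18 pairs of synthetases charging the same amino acid, as mean (point) and range (line) of 5 CPT2H-KO hearts (upper, red) and 5 wild type hearts (lower, blue). Pairs are sorted by difference, from Cars over Cars2 at the top (1.40) to Wars over Wars2 at the bottom (-0.32).

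Per length, cytosolic synthetase transcripts were the more abundant set. On the scale of CPM per kilobase of merged exons, the median level over the cytosolic genes was 5.85 in CPT2H-KO and 4.79 in wild type hearts, and over the mitochondrial genes 1.97 in CPT2H-KO and 2.06 in wild type hearts. Gars was the highest of the 37 in both groups, at a level of 18.3 ± 5.58 in CPT2H-KO and 9.87 ± 0.264 in wild type hearts (SD, n = 5 each). Behind it the order changed. In knockout hearts Nars (11.3 ± 1.97), Iars (10.9 ± 0.962), Sars (8.65 ± 1.84) and Mars (8.63 ± 0.640) followed, whereas in wild type hearts Kars (6.98 ± 0.434), Iars2 (6.79 ± 0.391), Dars (6.72 ± 0.511) and Nars (6.70 ± 0.252) did so. The last 4 of these wild type levels differed from their neighbours by less than their SD, as did Nars from Iars and Sars from Mars in knockout hearts, while Iars exceeded Sars by more than either SD. Kars, second in wild type hearts, was seventh in CPT2H-KO hearts at 7.46 ± 0.213. Iars2 was the most abundant mitochondrial member per length in both groups, at a level of 6.42 ± 0.236 in CPT2H-KO and 6.79 ± 0.391 in wild type hearts (SD, n = 5 each). Wars2 and Pars2 were the lowest members, below 1 CPM per kilobase in each group.

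Of 13 tested partner genes of the synthetases 0 rose and 3 fell by edgeR, with a median log2 fold change of -0.06, and at an unadjusted p under 0.05 Eef1e1 alone was higher. The counts of this list and of those that follow stand beside 16.7% of all tested genes called higher and 17% called lower. The scaffold genes Aimp1 (-0.06), Aimp2 (0.13) and Eef1e1 (0.31, adjusted p = 0.0576) were not called, nor were Qrsl1, Gatb and Gatc. Pstk, the kinase that prepares selenocysteine tRNA, was at 7.03 ± 0.354 CPM in CPT2H-KO and 10.2 ± 0.389 CPM in wild type hearts (SD, n = 5 each, log2 fold change -0.53, adjusted p = 0.000168). Tarsl2, another threonyl-tRNA synthetase whose symbol the rule did not take, was at 17.1 ± 1.53 CPM in CPT2H-KO and 20.7 ± 1.495 CPM in wild type hearts (SD, n = 5 each, -0.27, adjusted p = 0.0214), and Dtd2, a deacylase that removes wrong amino acids from tRNA, fell by 0.36 on the log2 scale (adjusted p = 0.0327).

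Of 17 genes for processing and modifying mitochondrial tRNA, 5 rose and 3 fell, with a median log2 fold change of -0.07, and the share that fell was close to that of all genes. Osgepl1, which makes the threonylcarbamoyl base of mitochondrial tRNAs, was at 12.3 ± 2.27 CPM in CPT2H-KO and 24.2 ± 2.13 CPM in wild type hearts (SD, n = 5 each, log2 fold change -0.98, adjusted p = 0.000291). Trmt5, a tRNA methyltransferase, fell by 0.62 (adjusted p = 0.000310), while Elac2, which cuts the 3′ end of tRNA precursors, rose by 0.45 (adjusted p = 0.000589) and Pus1, a pseudouridine synthase, by 0.49 (adjusted p = 0.00117). Among 9 mitochondrial translation factors Gfm2 rose by 0.19 (adjusted p = 0.0466) and Mtrf1 fell by 0.40 (adjusted p = 0.0300), with a median of -0.09. Of 9 cytosolic elongation and termination genes 4 rose and 0 fell by edgeR, with a median of 0.19. Eef1a1, the factor that brings charged tRNA to the ribosome, was at 608 ± 119 CPM in CPT2H-KO and 356 ± 30.3 CPM in wild type hearts (SD, n = 5 each, log2 fold change 0.77, adjusted p = 0.00117), and Gspt1 (0.49), Eif5a (0.34) and Etf1 (0.38) also rose.

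ATF4 pathway genes other than synthetases gave 16 of 21 higher and 1 lower (Cth), with a median log2 fold change of 1.36. Atf4 itself was at 55.9 ± 11.9 CPM in CPT2H-KO and 31.0 ± 3.54 CPM in wild type hearts (SD, n = 5 each, log2 fold change 0.85, adjusted p = 0.00108). Mthfd2, of mitochondrial folate metabolism, differed by 3.59, the secreted factor Gdf15 by 5.31, the proline synthesis enzyme Aldh18a1 by 1.59 and the asparagine synthetase Asns by 3.19. Each of the 20 cytosolic synthetase genes changed by less than that median.

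No synthetase gene passed the threshold when USP30 was deleted together with CPT2. With double KO set against single KO, 0 of 37 members were called by edgeR, 0 by DESeq2 and 0 by limma-voom, and 0 had an unadjusted p under 0.05. Over all 12997 genes tested edgeR called 0%, and 7.25% had an unadjusted p under 0.05. The log2 fold changes of the members ran from -0.31 for Mars2 to 0.18 for Ears2. Their medians were 0.03 over the cytosolic and -0.02 over the mitochondrial genes, against 0.003 over all genes. The median over the mitochondrial genes was 0.07 without double KO replicate 1 and -0.13 without double KO replicate 2. The 37 genes took 0.214% to 0.241% of the counts in double KO hearts and 0.219% to 0.240% in single KO hearts.

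Wars was the gene with the smallest p of the cytosolic set and the single member whose groups did not overlap, a separation that 5.07% of all tested genes showed in that direction. It had 60.7, 63.4 and 68.0 CPM in double KO hearts, against 70.9, 70.3 and 72.9 CPM in single KO hearts. All double KO libraries were lower, by an amount close to the standard error of the fit (log2 fold change -0.16, SE 0.13, adjusted p = 0.861). Qars had 58.4, 73.9 and 64.4 CPM in double KO hearts, against 57.3, 60.6 and 60.5 CPM in single KO hearts. Farsa had 21.3, 25.3 and 22.5 CPM in double KO hearts, against 25.1, 24.9 and 25.2 CPM in single KO hearts. Both overlapped, with log2 fold changes of 0.14 for Qars (SE 0.14, adjusted p = 0.890) and -0.12 for Farsa (SE 0.14, adjusted p = 0.907), and the single KO libraries of Farsa were nearly level.

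Among the mitochondrial members the smallest p values belonged to Nars2, Lars2 and Mars2. Nars2, the asparaginyl enzyme, had 7.39, 12.2 and 11.3 CPM in double KO hearts, against 11.5, 11.2 and 15.3 CPM in single KO hearts. Lars2 had 41.9, 64.4 and 59.5 CPM in double KO hearts, against 59.7, 70.5 and 63.7 CPM in single KO hearts. Mars2, the methionyl enzyme, had 6.39, 12.8 and 12.4 CPM in double KO hearts, against 13.1, 12.1 and 14.1 CPM in single KO hearts. In each of these 3 genes the first double KO heart was the lowest of the 6 libraries and the other two were within or near the single KO values. The log2 fold changes were -0.30 for Nars2 (SE 0.23, adjusted p = 0.857), -0.23 for Lars2 (SE 0.18, adjusted p = 0.858) and -0.31 for Mars2 (SE 0.25, adjusted p = 0.860). Without the first double KO heart they were -0.11 for Nars2, -0.062 for Lars2 and -0.058 for Mars2. With an atrial covariate they were -0.92 for Nars2, -0.72 for Lars2 and -1.24 for Mars2 (adjusted p = 0.157, 0.130 and 0.0840 by edgeR), and a sex term put Nars2 at -0.57. Atrial transcripts were low in all single KO hearts, so the covariate varied mainly among double KO hearts. The fit with it therefore leaned on double KO heart 1, which lay nearest to the single KO hearts in Myl7. Of the single KO hearts only heart 3 had Y-linked transcripts under 10 CPM, like the double KO hearts. The sex-term difference therefore rested on single KO heart 3.

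The first double KO heart was the lowest of all 6 libraries in 17 of the 37 genes, among them 11 of 17 mitochondrial ones, and the second double KO heart was the highest in 18. No count of this kind over all genes was taken. Over the tested genes the first heart also stood apart from double KO hearts 2 and 3 (chi-square per degree of freedom 69.2 and 60.7). Those hearts differed from each other by 19.4. The median deviation from the single KO mean was -0.07, 0.13 and -0.0002 for cytosolic genes in double KO hearts 1 to 3, against -0.12 to 0.07 in single KO hearts, and -0.22, 0.21 and -0.01 for mitochondrial genes in double KO hearts, against -0.10 to 0.05 in single KO hearts. Iars, which had the smallest p in CPT2H-KO against wild type and is named here after its values were seen, shows the spread: it had 68.8, 137 and 123 CPM in double KO hearts, against 101, 122 and 138 CPM in single KO hearts. Its first double KO heart was far below the rest, and the difference turned from -0.13 (SE 0.25, adjusted p = 0.947) to 0.11 without that library. That heart was also the double KO library with Myl7 under 10 CPM. Atrial markers summed to 9.05 to 1434 CPM in double KO hearts and 2.93 to 3.58 CPM in single KO hearts, and Y-linked transcripts stayed under 10 CPM in the double KO hearts. With an atrial covariate Iars was at -0.99 (adjusted p = 0.105 by edgeR), and with a sex term at -0.33 (adjusted p = 0.810). As above, the first of these fits leaned on double KO heart 1 and the second on single KO heart 3. The mitochondrial median was -0.25 with the atrial covariate, and no member was called in either fit. Of the other markers, endothelial genes summed to 727 to 852 CPM in double KO and 939.5 to 1064 CPM in single KO hearts, red blood cell genes to 3136 to 5268 CPM in double KO and 5639 to 6910 CPM in single KO hearts, and smooth muscle genes to 228 to 312 CPM in double KO and 168 to 187 CPM in single KO hearts. Fibroblast genes (1742 to 2984 CPM in double KO, 1472 to 2051 CPM in single KO hearts) and macrophage genes (179 to 250.1 CPM in double KO, 117 to 207 CPM in single KO hearts) overlapped.

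**Figure D5:**
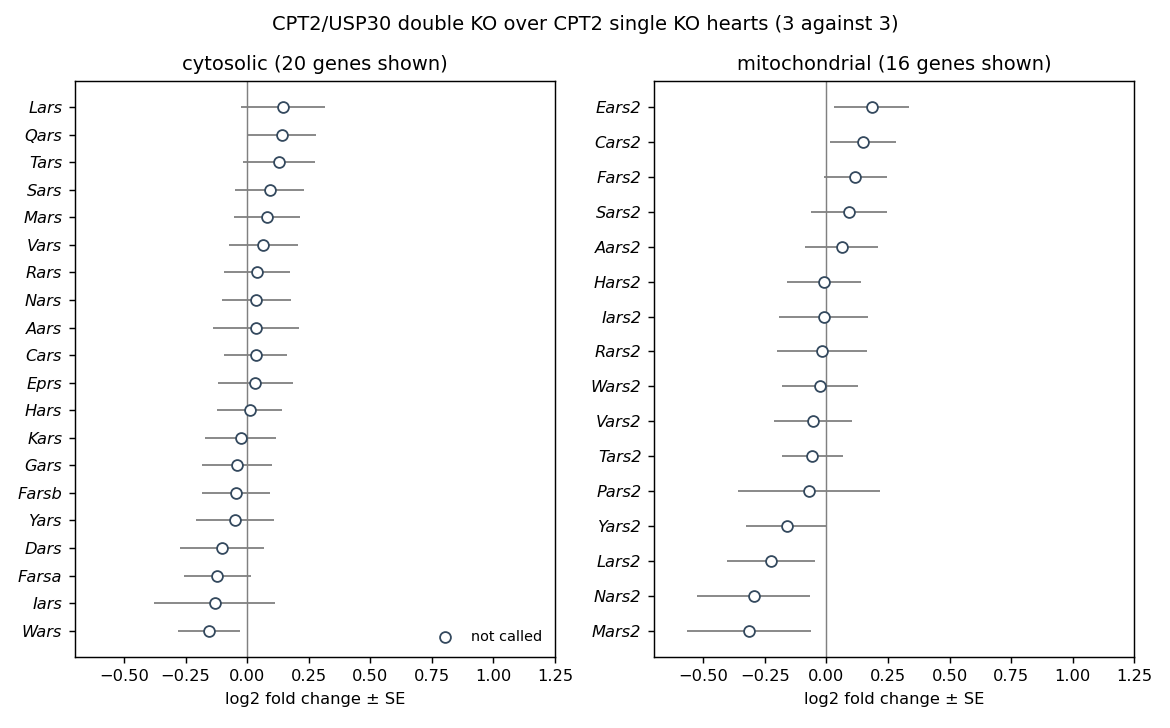
Log2 fold change (CPT2/USP30 double KO over CPT2 single KO, x axis, with its standard error) of the same 20 cytosolic (left) and 16 mitochondrial (right) genes on the same axis range as the CPT2H-KO plot. No point is filled, and all lie between -0.31 and 0.18.

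Levels per length in the second table kept the cytosolic set above the mitochondrial set, with medians of 15.7 CPM per kilobase in double KO and 15.3 in single KO hearts for cytosolic genes and 6.52 in double KO and 5.88 in single KO hearts for mitochondrial genes. Gars was the highest member there too, at a level of 43.5 in double KO and 44.8 in single KO hearts, followed by Kars at 33.2 in double KO and 33.8 in single KO hearts. The log2 ratio of cytosolic to mitochondrial transcript was above single KO in 9 of 18 pairs, with a median difference of 0.01. It separated the groups upward in 2 pairs, Mars over Mars2 (0.46) and Lars over Lars2 (0.39), and downward in 2, Farsa over Fars2 (-0.24) and Wars over Wars2 (-0.13). Among single genes, 870 of the 12997 tested separated upward and 659 downward, and no share over other gene pairs was taken. In the partner, tRNA processing, elongation, mitochondrial translation, ATF4 pathway and interferon lists edgeR called 0 genes, and Atf4 differed by 0.13 (adjusted p = 0.937).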

How the data were processed

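Total RNA of 16 mouse hearts was sequenced, per the labels' protocols after ribosomal RNA depletion with a stranded kit. Per the submitters' processing notes, bcl2fastq, HISAT2, mm10 and DESeq2 1.42.0 were used; the sources used here name no counting program, annotation or strand setting. The authors deposited raw gene counts in 2 tables, which were analysed separately. The row without a gene name in the second table held 0 counts and was left out.

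Counts were filtered with filterByExpr, scaled by TMM and tested with edgeR 4.0.16 in R 4.3.3 (quasi-likelihood F test, Benjamini-Hochberg adjustment, threshold 0.05). The SE is the log2 fold change over the square root of F. The first table lists no gene with a total under 151 counts. Depth ranged from 11067969 to 132762776 counts per library, and CPM, mean ± SD over libraries, carries that counting error. Alternatives were other scalings (library totals, DESeq2 size factors, mitochondrially encoded genes and Lars2 removed), no filter, DESeq2, limma-voom (limma 3.58.1), the replicate number as a block, terms for sex or for atrial transcripts, and each replicate left out. The fit was also run on simulated data with 200 changed genes, and the outcome of that run is not given here. The lowest chi-square per degree of freedom between libraries of a group was 9.641, so no library was a duplicate. Whether hearts were littermates is not given, so p-values reflect only how much these samples vary.

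Members and gene lists were chosen with earlier results of these data known. Named genes were the 6 of each class with the smallest p (3 of each in the second table), plus Lars2, Kars, Gars, Eprs, Farsa and Farsb, all called members, and up to 4 called genes per partner list. One mitochondrial member is counted in the totals and not reported by name or drawn here. Exon lengths came from GENCODE M21 and promoters from RefSeq (GRCm38.p6).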

Additional observations from a re-analysis of the deposited data

Results flagged for a closer look

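The 37 members gave 74 sets of 5 libraries, and in 3 of them 1 library stood far from the other 4 by Dixon's criterion (gap over range above 0.71). Chance exceeds that limit in about 1 of 20 sets, a larger share than the 3 of 74 seen here. Vars in CPT2H-KO replicate 1 was at 28.6 CPM, with the other 4 knockout libraries at 21.0 to 22.8 CPM. Cars2 in the same library was at 7.63 CPM, with the others at 12.7 to 14.4 CPM. Mars in wild type replicate 3 was at 20.8 CPM, with the other 4 wild type libraries at 19.0 to 19.4 CPM. Vars and Mars were called higher in CPT2H-KO hearts without either library.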

How the results depend on the processing

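In CPT2H-KO against wild type hearts, the count of cytosolic genes called higher was 9 to 13 over 20 alternatives. Scaling by library totals gave 3 cytosolic genes lower (median 0.19), 0 mitochondrial genes higher and 7 lower (median -0.34). It also turned the sign of Rars (-0.0069), Kars (-0.17), Farsb (-0.17), Wars (-0.23), Vars2 (-0.050), Aars2 (-0.10), Rars2 (-0.090), Yars2 (-0.070), Tars2 (-0.18) and Nars2 (-0.25). The all-gene shift under that scaling is given with the counts. An atrial covariate gave 0 mitochondrial genes higher and 1 lower, with Hars at 0.091 and Tars2 at -0.015; it called 3103 of all genes in place of 4758. Without the CPT2H-KO libraries under 10 CPM of Myl7, a choice made after seeing the data, 0 mitochondrial genes were higher, with Hars at 0.096, Tars2 at -0.059 and Nars2 at -0.0013. Qars, near 0, turned to 0.00078 with DESeq2 size factors and to 0.0042 with mitochondrially encoded genes removed. The cause was not tested.

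Leaving out each replicate gave 1 to 3 mitochondrial genes higher: 3 without CPT2H-KO replicate 1 (Rars2 and Yars2 joined) and 2 without CPT2H-KO replicate 5 or wild type replicate 1 (Lars2 joined). Hars ran from -0.060 to 0.0077, Qars from -0.031 to 0.017 and Nars2 from -0.026 to 0.051.

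In double KO against single KO hearts no member was called under any of 15 alternatives. The cytosolic median was -0.075 with a sex term, -0.081 with an atrial covariate, -0.080 without the double KO libraries above 10 CPM of Myl7 (chosen after seeing the data; Qars -0.032) and -0.069 to 0.050 with a replicate left out. The sex-term fit rested on single KO heart 3, and the atrial covariate leaned on double KO heart 1. The atrial covariate put the mitochondrial median at -0.25 and Qars at -0.039, and Iars ran from -0.99 with that covariate to 0.11 without double KO replicate 1, being -0.33 without double KO replicate 2 and -0.81 without the Myl7 libraries, which leaves 1 double KO heart. In that fit Nars2 was at -0.78, Lars2 at -0.63 and Mars2 at -1.04; leaving out double KO replicate 2 put Mars2 at -0.48 and Lars2 at -0.35, and leaving out single KO replicate 3 put Nars2 at -0.15. Wars (-0.28) and Farsa (-0.23) were also lower with the atrial covariate, none of these called. Over all genes, edgeR called 0, DESeq2 113, the atrial covariate 50, the fit without those Myl7 libraries 36, and leaving out a replicate 0 to 114.

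Replicate numbers did not pair the hearts: deviations of same-numbered libraries correlated at -0.087 to 0.23 in the first table and -0.21 to 0.17 in the second. With the replicate block, 12 cytosolic genes were higher and 2 mitochondrial genes lower, Rars (adjusted p = 0.0546) and Ears2 (adjusted p = 0.0511) no longer called, and 4179 genes were called in the first table and 1 in the second. In the second table the SE of a member's log2 fold change was 0.12 to 0.29, and smaller differences lie within that error.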
